A study of Mus musculus with 24 samples.

Results

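The Gata factors and their Fog cofactors are described here by 7 autosomal mouse genes, Gata2, Gata3, Gata4, Gata5, Gata6, Zfpm1 and Zfpm2, which were taken as a fixed list by symbol from the 37310 genes of the annotation. ChIP-seq for H3K4me3 and H3K27me3, with histone H3 as the control, had been performed in 4 cell populations purified by FACS from C57BL/6 x CD1 embryonic gonads. XY progenitor and XX progenitor cells came from gonads carrying SF1-eGFP at E10.5. Sertoli cells came from XY gonads carrying Sox9-CFP at E13.5, and pregranulosa cells from XX gonads carrying TESM-CFP at E13.5, a population that the labels call granulosa cells. Each of the 24 samples, 2 replicates per antibody and population, was a pool of gonads sorted by its reporter alone. The processed data are 8 lists of peaks, 1 per mark and population, each made from both replicates, so no spread between replicates and no test between populations can be had from them. A peak list holds the position of a mark but no measure of its strength. A region called in a pool also cannot be told apart from a region present in only some of its cells, and 2 marks over the same bases may lie in the same cells or in different ones.

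GATA factors are zinc finger proteins that bind DNA at GATA-containing motifs. Gata2 and Gata3 are known for their roles in blood, and Gata4, Gata5 and Gata6 for those in heart, endoderm and gonad. Zfpm1 encodes FOG1 and Zfpm2 encodes FOG2, cofactors that do not bind these motifs themselves but attach to a zinc finger of the GATA protein and bring in corepressors. In the gonad, GATA4 is needed for growth of the genital ridge, and the contact between GATA4 and FOG2 is needed for testis development. H3K4me3 is a mark of active or poised promoters, H3K27me3 is deposited by Polycomb repressive complex 2, and promoters with both are called bivalent.

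Promoter sequence was matched by symbol in RefSeq (GRCm38.p6) for 4 of the 7 genes, Gata2, Gata3, Gata5 and Zfpm1. The entries of Gata4, Gata6 and Zfpm2 were not found there. Each of the 5 windows found for these 4 genes, 300 bases long and spanning the start site, matched the mm9 genome at exactly 1 place. The windows below are shown because they are the bases under the regions described later: those of Gata2, Gata3 and Gata5 lay inside H3K4me3 and H3K27me3 regions in all 4 populations, and that of Zfpm1 lay inside H3K4me3 in all 4 and inside H3K27me3 in none. Capitals mark CG dinucleotides, and each sequence is written 5′ to 3′ on the strand of its gene. Positions are mm9.
Gata2, distal start, + strand, chr6:88143635-88143934: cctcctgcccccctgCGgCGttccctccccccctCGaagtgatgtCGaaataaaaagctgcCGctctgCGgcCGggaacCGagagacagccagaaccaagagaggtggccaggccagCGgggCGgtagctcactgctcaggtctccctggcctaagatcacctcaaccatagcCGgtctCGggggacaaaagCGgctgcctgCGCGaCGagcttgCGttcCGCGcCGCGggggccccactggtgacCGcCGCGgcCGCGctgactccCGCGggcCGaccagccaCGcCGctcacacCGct
Gata3, internal start, - strand, chr2:9800178-9800477: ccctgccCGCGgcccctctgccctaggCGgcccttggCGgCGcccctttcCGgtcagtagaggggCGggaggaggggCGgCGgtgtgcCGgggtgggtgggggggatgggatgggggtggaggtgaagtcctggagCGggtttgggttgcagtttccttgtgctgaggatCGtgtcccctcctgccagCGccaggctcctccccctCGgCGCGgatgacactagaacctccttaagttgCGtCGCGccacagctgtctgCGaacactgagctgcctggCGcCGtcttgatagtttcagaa
Gata5, - strand, chr2:180069335-180069634: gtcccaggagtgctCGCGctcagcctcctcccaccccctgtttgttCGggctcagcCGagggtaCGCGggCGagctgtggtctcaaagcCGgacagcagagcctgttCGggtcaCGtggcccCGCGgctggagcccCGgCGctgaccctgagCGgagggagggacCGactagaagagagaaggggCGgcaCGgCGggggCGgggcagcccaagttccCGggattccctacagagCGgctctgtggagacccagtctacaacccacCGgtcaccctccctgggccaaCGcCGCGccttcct
Zfpm1, + strand, chr8:124805791-124806090: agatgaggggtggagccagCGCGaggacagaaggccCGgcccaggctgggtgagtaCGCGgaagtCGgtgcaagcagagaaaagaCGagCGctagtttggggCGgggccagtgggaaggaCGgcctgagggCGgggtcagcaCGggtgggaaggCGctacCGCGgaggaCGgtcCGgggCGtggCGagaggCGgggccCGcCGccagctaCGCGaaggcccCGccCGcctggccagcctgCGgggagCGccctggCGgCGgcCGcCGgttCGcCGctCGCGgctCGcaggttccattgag

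The window of Gata2 held 32 CG dinucleotides, that of Gata3 held 22, that of Gata5 held 26 and that of Zfpm1 held 37, against a median of 7 over the 32851 RefSeq promoter windows of 27025 genes. A second window of Gata2, at its start 4773 bp downstream, held 29. All were therefore rich in CG, and the richest was Zfpm1, the one without H3K27me3 over its start. A GATA motif, searched on both strands as AGATAA, with T allowed in place of the first letter and G in place of the last, was found once in the Gata3 window (TGATAG) and not in the others, whereas 29.8% of all windows held one. On mm9, the ratio of observed to expected CG in the 4001 bp around the start was 0.69 for Gata6, 0.66 for Zfpm1, 0.56 for Zfpm2, 0.53 for Gata5, 0.49 for Gata2, 0.40 for Gata3 and 0.24 for Gata4, with a median of 0.37 over 21411 protein-coding genes. Gata4 was thus the only member below the median at its most upstream start.

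Depth differed between the lists. For H3K4me3 the XY progenitor list was called from 10162534 tags, the XX progenitor list from 49254553 and the Sertoli list from 31104760. For H3K27me3 the XY progenitor list had 6470151 tags, the XX progenitor list 33185400 and the Sertoli list 44446456. Depth was not given for pregranulosa cells. Their H3K27me3 list also differed in form, since none of its 12609 peaks overlapped or touched and they stayed 12609 regions. The other H3K27me3 lists held 36469 to 74154 peaks, which joined into 9309 to 13313 regions. The part of this in comparisons with pregranulosa cells was not tested. The populations were checked against markers. H3K27me3 was listed at the promoters of 0 of 4 Sertoli markers in Sertoli cells and of 4 of 4 in pregranulosa cells, and at 4 of 4 pregranulosa markers in Sertoli cells and 2 of 4 in pregranulosa cells. Foxl2, a defining pregranulosa factor, was among the latter 2. For other cell types the gonad could hold, H3K4me3 was listed at 1 to 3 of 4 germ cell markers, 1 to 3 of 4 steroidogenic markers, 1 or 2 of 4 endothelial markers and 1 of 3 blood markers, and at none of Ddx4, Pecam1, Tek, Ptprc and Hbb-b1 in any list.

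A promoter here is the 4001 bp window that extends 2 kb to each side of the most upstream annotated start, and a single base (1 bp) of overlap with a region sufficed to count it as marked. All 7 promoters carried H3K4me3 in all 4 populations, where 64.8% of the 21418 autosomal protein-coding promoters did so in XY progenitor, 66.7% in XX progenitor, 65.5% in Sertoli and 67.0% in pregranulosa cells. H3K27me3 was present at 6 of 7 in XY progenitor cells (background 23.6%) and 6 of 7 in XX progenitor cells (22.8%), with Zfpm1 the exception in both. At E13.5 it was present at 4 of 7 in Sertoli cells (24.2%) and the same 4 in pregranulosa cells (22.1%), Gata2, Gata3, Gata5 and Zfpm1. Since every promoter carried H3K4me3, the same genes were bivalent, 6, 6, 4 and 4 in the order used above, where 20.9%, 21.4%, 19.2% and 19.6% of all promoters were. Because the genes are few and were chosen with results known, these counts describe the 7 genes and carry no test.

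The changes in H3K27me3 between E10.5 and E13.5 fell into 3 patterns, and each was the same in the XY and the XX lineage. Gata4, Gata6 and Zfpm2 lost the mark, Gata2, Gata3 and Gata5 kept it, and Zfpm1 gained it at the edge of its promoter window. From XY progenitor to Sertoli cells 3 of the 6 marked members lost H3K27me3, where 22.4% of 5060 marked promoters did (exact Clopper-Pearson 95% interval 21.2% to 23.6%, counting error only). From XX progenitor to pregranulosa cells the same 3 of 6 lost it, against 18.5% of 4894 (17.4% to 19.6%). Of the 4562 promoters marked in both progenitors, 479 lost the mark in both lineages and 89.5% still had it in at least 1 of them, compared with 3 of the 6 members. It was kept in both lineages by 76.7%, and by the same 3 members. Gain concerned the single member without the mark at E10.5, Zfpm1, and the background was 7.68% of 16358 promoters in the XY lineage, 4.43% of 16524 in the XX lineage and 2.25% of 16026 in both. At E13.5, 5.11% of all promoters carried H3K27me3 in Sertoli cells and not in pregranulosa cells and 2.96% the reverse, and 0 of 7 members did either. None of the 7 promoters thus differed between the sexes in the presence of either mark at either stage.

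**Figure D1:**
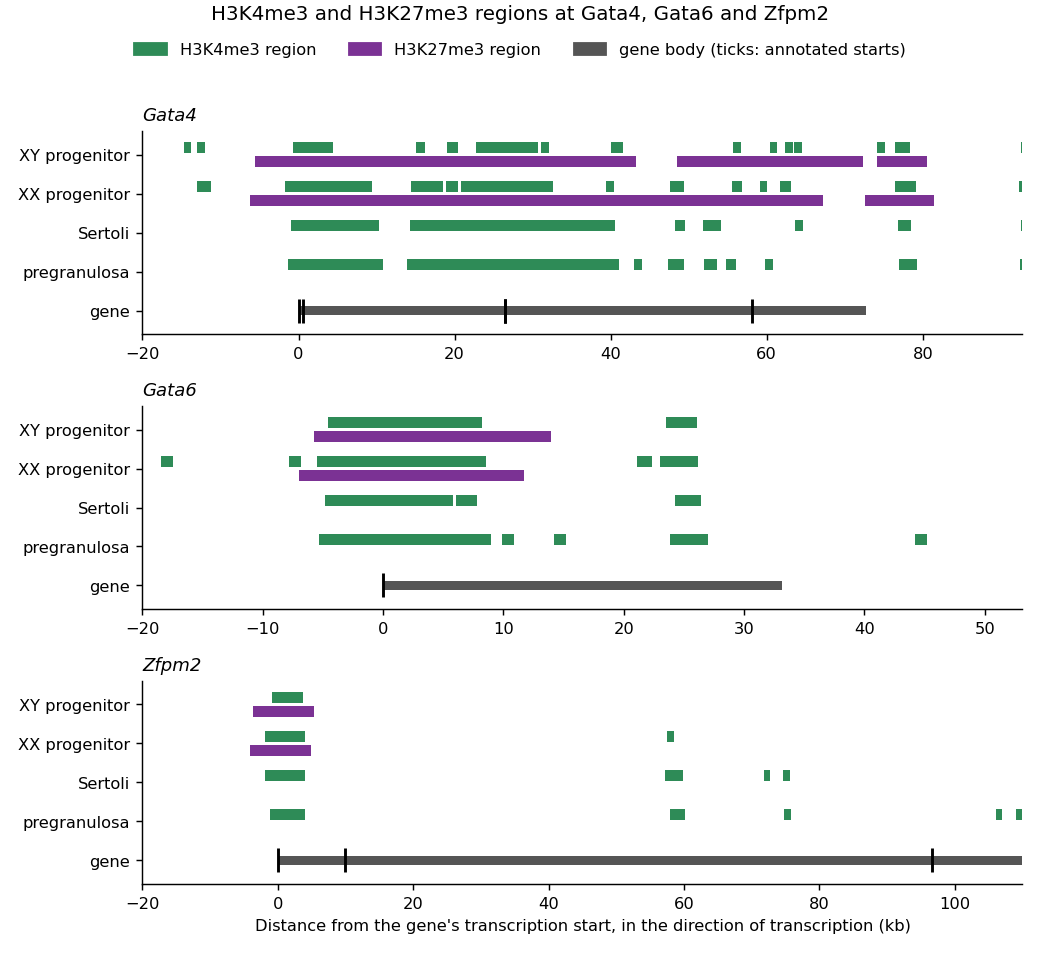
Regions of H3K4me3 (green) and H3K27me3 (purple) in the 4 populations, drawn by distance in kb from the most upstream annotated start of Gata4, Gata6 and Zfpm2, with the gene body in grey and ticks at annotated starts (Zfpm2 is shown over its first part only). Purple bars are present in the 2 progenitor populations and absent from Sertoli and pregranulosa cells at all 3 genes.

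Gata4 encodes the family member best known in the somatic gonad. It lies on the minus strand of mm9 chromosome 14 (chr14:63817759-63890529, 72.8 kb). At E10.5 nearly its whole length carried H3K27me3, 92.2% of the gene body in XY progenitor and 92.7% in XX progenitor cells, and the mark covered all 4001 bp of the promoter window in both. The region at the promoter was 48.8 kb wide in XY progenitor cells, with a second region of 23.8 kb further into the gene, and 73.5 kb wide in XX progenitor cells, where it ranked 219 of 9309 by width. In Sertoli and in pregranulosa cells 0 bp of the promoter, the gene body and the 20 kb flanks were covered. The nearest H3K27me3 region was then 148 kb from the start in Sertoli cells and 161 kb in pregranulosa cells. The Sertoli list was called from 44446456 tags and the XY progenitor list from 6470151, the depth of the pregranulosa list is unknown, and the part of depth in the difference was not tested.

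The H3K4me3 landscape of Gata4 widened in the same interval. H3K4me3 covered 29.7% of the gene body in XY progenitor, 45.6% in XX progenitor, 56.5% in Sertoli and 61.6% in pregranulosa cells, so both E13.5 values lay above both E10.5 values. The Sertoli list was called from 31104760 tags, the XX progenitor list from 49254553 and the XY progenitor list from 10162534, and the part of depth in these values was not tested. The annotation gives Gata4 starts at 0 and 568 bp, a group at 26421 to 26444 bp and 1 at 58085 bp from the most upstream start. The group at 26.4 kb lay inside an H3K4me3 region in every list, and its windows were covered over all 4001 bp. That region was 8.01 kb wide in XY progenitor and 11.8 kb in XX progenitor cells. In Sertoli cells it ran from 14221 to 40576 bp downstream of the first start, a width of 26.4 kb, and was the widest of all 39050 H3K4me3 regions of that list. In pregranulosa cells it ran from 13907 to 41005 bp, a width of 27.1 kb, and ranked 3 of 44349. In the progenitors the widest region at Gata4 ranked 71 of 37847 in XY and 45 of 41781 in XX cells. Joining peaks that lie within 1 kb or 5 kb of each other, a choice made after the data were seen, gave ranks of 2 and 5 in Sertoli cells and 4 and 4 in pregranulosa cells. In XX progenitor cells it widened the region to 18.3 kb (rank 25) and 34.3 kb (rank 33), where the Sertoli region measured 26.4 and 41.5 kb, and in XY progenitor cells to 9.36 kb (rank 81) and 17.1 kb (rank 124). In pregranulosa cells the joined regions measured 27.1 and 62.0 kb. The gap in width between XX progenitor and Sertoli cells was thus smaller with joining. Within each lineage the gap between E10.5 and E13.5 was smaller with joining within 1 kb and larger with joining within 5 kb.

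The first start of Gata4 carried its own H3K4me3 region, 5.05 kb wide in XY progenitor, 11.2 kb in XX progenitor, 11.2 kb in Sertoli and 12.1 kb in pregranulosa cells. The most downstream start, at 58.1 kb, was outside H3K4me3 regions in all 4 lists. In both progenitors every base of the Gata4 body with H3K4me3 also carried H3K27me3, 21581 bp in XY and 33188 bp in XX cells, and at E13.5 no base carried both. Neil2, a DNA glycosylase gene whose start lies 78151 bp downstream of that of Gata4 on the same strand, had all 4001 bp of its promoter under H3K27me3 in both progenitors and 0 bp in both E13.5 populations. H3K4me3 at the Neil2 promoter covered 1963, 2799, 1757 and 2307 bp in XY progenitor, XX progenitor, Sertoli and pregranulosa cells.

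**Figure D2:**
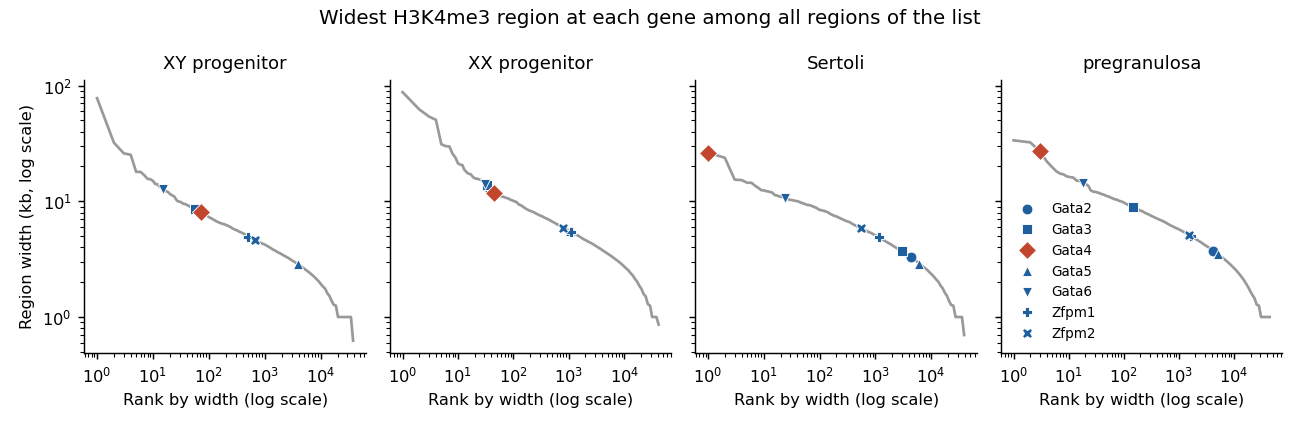
Width in kb of every H3K4me3 region against its rank in each list (grey line, both axes logarithmic), with the widest region at each of the 7 genes as a symbol and Gata4 in red. Gata4 stood at rank 71 and 45 in XY and XX progenitor cells and at rank 1 and 3 in Sertoli and pregranulosa cells.

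Gata6, the close relative of Gata4, lies on the plus strand of chromosome 18 (chr18:11052508-11085633, 33.1 kb) and has 1 annotated start. Its H3K27me3 region was 19.7 kb wide in XY progenitor and 18.7 kb in XX progenitor cells and covered the whole promoter window in both. It reached from 5762 bp upstream to 13955 bp downstream of the start in XY cells and from 6997 to 11724 bp in XX cells. No base of the promoter, gene body or flanks was covered at E13.5, and the nearest region was 176 kb away in Sertoli and 203 kb in pregranulosa cells. H3K4me3 covered all 4001 bp of the promoter in every population. The H3K4me3 region there was 12.8 kb wide in XY progenitor, 14.1 kb in XX progenitor, 10.7 kb in Sertoli and 14.3 kb in pregranulosa cells, and ranked 15, 31, 24 and 18 in its list. Gata6 therefore had a broad H3K4me3 region before and after H3K27me3 was lost, and its H3K4me3 cover of the gene body, 32.5% and 39.1% in XY and XX progenitor and 29.5% and 42.6% in Sertoli and pregranulosa cells, was lower at E13.5 in the XY lineage and higher in the XX lineage. A separate H3K4me3 region began 23504, 23043, 24271 and 23817 bp downstream of the start in the same order. Narrower regions were listed nearer to the start, from 21098 bp in XX progenitor cells, from 6014 bp in Sertoli cells, and from 9910 and 14180 bp in pregranulosa cells. The non-coding gene 1010001N08Rik starts 57 bp from Gata6 on the other strand and shares its promoter, so its values, 4001 bp of H3K4me3 in all 4 lists and 4001, 4001, 0 and 0 bp of H3K27me3, cannot be told apart from those of Gata6.

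Zfpm2 encodes FOG2, the partner of GATA4 in the gonad and heart. It is a gene of 450 kb on the plus strand of chromosome 15 (chr15:40486588-40936138). H3K27me3 was confined in both progenitors to a single region at the first start, 9.02 kb wide in XY and 8.97 kb in XX cells, that covered the whole promoter window. No H3K27me3 was listed over the promoter, the body or the flanks in either E13.5 population, and the nearest region was 537 kb away in Sertoli and 789 kb in pregranulosa cells. H3K4me3 covered 2937, 3964, 3853 and 3113 bp of the promoter in XY progenitor, XX progenitor, Sertoli and pregranulosa cells, and the region was 4.62, 5.94, 5.83 and 5.14 kb wide. With the flanks included, 7 H3K4me3 regions were listed in XY progenitor and 10 in XX progenitor against 12 in Sertoli and 18 in pregranulosa cells. Their share of the body was 2.16%, 3.64%, 4.31% and 5.94%. Apart from the region at the promoter they were 1001 to 2662 bp wide, and in XY progenitor cells each was 1001 bp, a single window of the caller. The H3K4me3 lists were called from 10162534 tags in XY progenitor, 49254553 in XX progenitor and 31104760 in Sertoli cells. Pregranulosa depth is unknown, and the part of depth in these counts was not tested. The other annotated starts, at 9.95 kb and 96.7 kb, had 0 bp of H3K4me3 in their windows in all 4 lists.

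At E13.5 no H3K27me3 was thus listed anywhere in Gata4, Gata6 and Zfpm2 or their flanks, although at Gata6 and Zfpm2 the progenitor regions had covered only the part around the start. Of the 4562 promoters marked in both progenitors, 5.79% had no H3K27me3 in the gene and its 20 kb flanks in both E13.5 lists (5.13% to 6.50%), and 3 of the 6 marked members did.

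**Figure D3:**
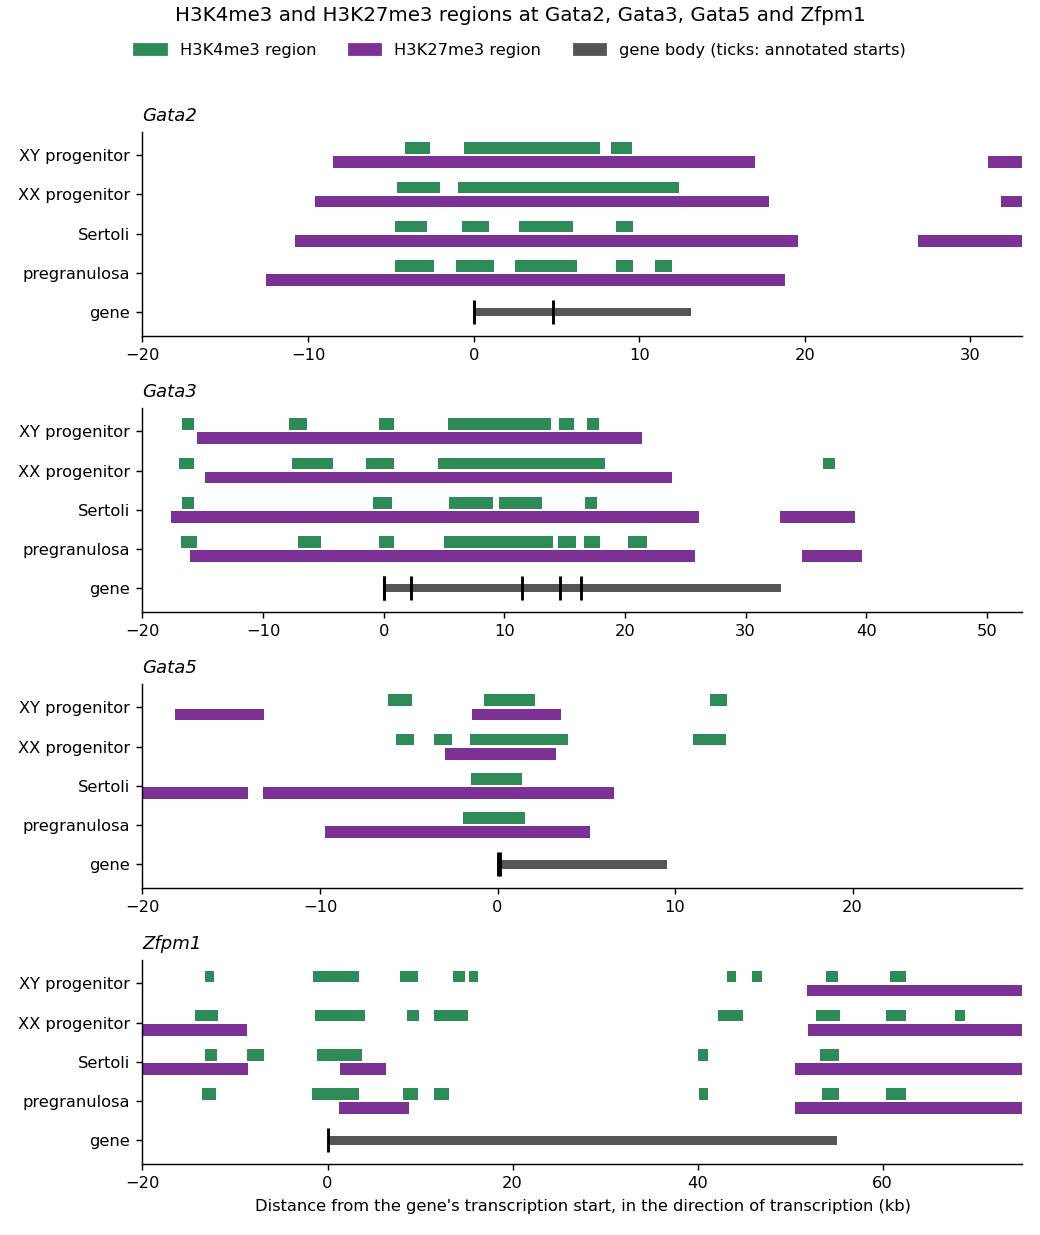
Regions of H3K4me3 (green) and H3K27me3 (purple) in the 4 populations, drawn by distance in kb from the most upstream annotated start of Gata2, Gata3, Gata5 and Zfpm1, with the gene body in grey and ticks at annotated starts. H3K27me3 spans Gata2 and the first part of Gata3 in all 4 populations, is wider at Gata5 in Sertoli and pregranulosa cells, and begins downstream of the start of Zfpm1 at E13.5.

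Gata2, a regulator of blood stem cells, lies on the plus strand of chromosome 6 (chr6:88143885-88157024, 13.1 kb). Its whole body and promoter were inside 1 H3K27me3 region in all 4 populations. The region was 25.5 kb wide in XY progenitor, 27.4 kb in XX progenitor, 30.4 kb in Sertoli and 31.3 kb in pregranulosa cells. H3K4me3 went the other way. The H3K4me3 region at the first start was 8.21 kb in XY progenitor and 13.4 kb in XX progenitor cells and 1.68 kb in Sertoli and 2.30 kb in pregranulosa cells, and the body cover was 67.6%, 94.4%, 39.8% and 53.1%. At E13.5 the single broad region was replaced by separate ones over the 2 annotated starts. The second start, at 4773 bp, kept a region of 3.27 kb in Sertoli and 3.75 kb in pregranulosa cells. A separate H3K27me3 region downstream of Gata2 reached into its flank at 1700031F10Rik in XY progenitor (21.7 kb), XX progenitor (20.5 kb) and Sertoli cells (25.4 kb). In pregranulosa cells no separate region reached the 20 kb flank, and bases beyond the flank were not read. The downstream region in Sertoli cells also covered 3535 bp of the promoter of Dnajb8.

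Gata3, a regulator of T cells and of the developing nephric duct, lies on the minus strand of chromosome 2 (chr2:9778705-9811661, 33.0 kb) and has 6 distinct annotated starts. One H3K27me3 region covered its promoter and the first part of the gene in every list, 36.9 kb wide in XY progenitor, 38.7 kb in XX progenitor, 43.7 kb in Sertoli and 41.9 kb in pregranulosa cells. It covered 64.9%, 72.4%, 79.5% and 78.3% of the body. In Sertoli and pregranulosa cells a second region, 6.25 kb and 5.00 kb wide, began 32852 and 34681 bp downstream of the start. The gene is 32957 bp long, so the Sertoli region reached only its last bases and the pregranulosa region lay beyond it. H3K4me3 at the most upstream start was narrow, 1.30, 2.31, 1.55 and 1.26 kb in the order XY progenitor, XX progenitor, Sertoli and pregranulosa. The wider H3K4me3 signal lay over the internal start at 11.4 kb, whose sequence is given above, 8.56 kb wide in XY progenitor, 13.8 kb in XX progenitor and 8.97 kb in pregranulosa cells. In Sertoli cells it was in 2 pieces of 3.70 and 3.58 kb. Every base of the Gata3 body with H3K4me3 also carried H3K27me3 in all 4 lists, from 8953 bp in Sertoli to 14696 bp in XX progenitor cells. Gm13256, 4930412O13Rik and 9230102O04Rik lie inside Gata3, and the peaks over them cannot be assigned to one gene or the other.

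Gata5, known for roles in heart and endoderm, lies on the minus strand of the same chromosome (chr2:180059838-180069404, 9.57 kb). H3K27me3 covered 3418 bp of its promoter in XY progenitor cells and all 4001 bp in the other populations. The region was 5.00 kb in XY progenitor, a single window of the caller, 6.25 kb in XX progenitor, 19.8 kb in Sertoli and 15.0 kb in pregranulosa cells. It was thus wider at E13.5 in both lineages. Its upstream edge lay 1417 bp upstream of the start in XY progenitor and 13223 bp in Sertoli cells. In the XX lineage the edge lay at 2949 bp and then 9738 bp. The upstream flank was not free of the mark in XY progenitor cells, where a separate H3K27me3 region ran from 18153 to 13153 bp upstream. In Sertoli cells a separate region ran from 21615 to 14032 bp upstream. H3K4me3 at the promoter covered 2741, 3563, 2897 and 3501 bp in the order XY progenitor, XX progenitor, Sertoli and pregranulosa, while its cover of the body was 22.3%, 41.4%, 14.7% and 16.4%. The progenitor lists also held H3K4me3 regions upstream of the start and beyond the gene end, and the E13.5 lists held only the region at the promoter. Gm14318, on the other strand, overlaps Gata5, and its promoter carried both marks in all 4 lists.

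The H3K27me3 regions at Gata2, Gata3 and Gata5 were each wider at E13.5 than at E10.5 in both lineages. Of the 3499 promoters that kept the mark, 60.0% showed the same (58.4% to 61.6%), so widening was the common outcome. The median region at a marked promoter was 8.05 kb in XY progenitor, 8.90 kb in XX progenitor, 11.6 kb in Sertoli and 10.4 kb in pregranulosa cells, and at E13.5 all 3 genes lay above it. Depth moved with width in the XY lineage, 6470151 tags in XY progenitor and 44446456 in Sertoli cells, and its part in the widening was not tested. For the XX lineage the pregranulosa list had unknown depth and another form, and the part of these was not tested either.

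**Figure D4:**
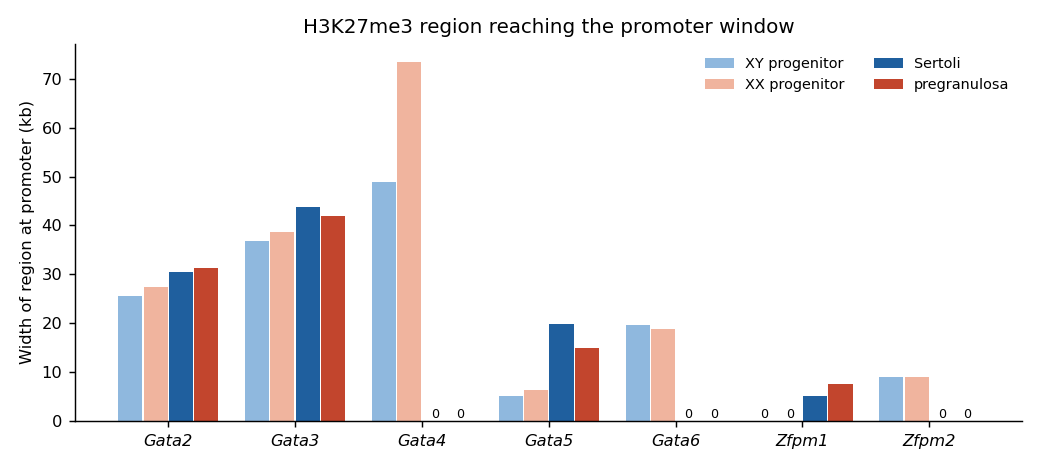
Width in kb of the H3K27me3 region that reaches the promoter window of each gene, 1 bar per population, with 0 where none was listed. The bars of Gata2, Gata3 and Gata5 are higher in Sertoli and pregranulosa cells than in the progenitors, those of Gata4, Gata6 and Zfpm2 are at 0 there, and Zfpm1 has bars of 5.00 and 7.58 kb at E13.5 only.

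Zfpm1 encodes FOG1, the cofactor of GATA1 in red blood cells and platelets. It lies on the plus strand of chromosome 8 (chr8:124806039-124861146, 55.1 kb). Its promoter carried H3K4me3 over 3527 bp in XY progenitor, 3360 bp in XX progenitor, 3176 bp in Sertoli and 3637 bp in pregranulosa cells, in regions 4.96, 5.45, 4.89 and 5.00 kb wide. H3K27me3 covered 0 bp of the promoter in both progenitors, 678 bp in Sertoli and 750 bp in pregranulosa cells. The E13.5 regions began 1323 bp downstream of the start in Sertoli cells and 1251 bp in pregranulosa cells and were 5.00 and 7.58 kb wide. They did not contain the start, and with a window of 1 kb to either side of it Zfpm1 had no gain. The Sertoli region was a single window of the caller and was absent when only the widest 75% of regions were kept.

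Beyond the promoter, Zfpm1 was flanked by H3K27me3 in every population. A region of 35.6 kb in XY progenitor, 34.2 kb in XX progenitor, 36.8 kb in Sertoli and 34.5 kb in pregranulosa cells began 51785, 51968, 50515 and 50495 bp downstream of the start, covered the 3′ end of the gene and filled all 20000 bp of the downstream flank. Trhr2, downstream on the other strand, had 4001 bp of its promoter covered in all 4 lists. The upstream flank differed between lists, with 0 bp in XY progenitor, 11284 bp in XX progenitor, 11368 bp in Sertoli and 0 bp in pregranulosa cells. It contained the promoter of Gm22, which was covered over 4001 bp in XX progenitor and Sertoli cells and not at all in the other 2. This flank was therefore listed as marked in opposite sexes at the 2 stages. The XY progenitor H3K27me3 list was called from 6470151 tags and the XX progenitor list from 33185400. The pregranulosa list had unknown depth and another form, and the part of these in the difference was not tested. No replicate bears on whether such a difference between single lists would recur.

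Across the 7 genes, H3K4me3 over the gene body was lower at E13.5 in both lineages at Gata2, Gata3, Gata5 and Zfpm1, and higher in both at Gata4 and Zfpm2. Among the bodies of all 21418 autosomal protein-coding genes 13.9% were lower in both and 25.5% were higher in both. That background includes genes without H3K4me3, whereas all 7 members carried it. The 4 that were lower carried H3K27me3 at the promoter at E13.5 and the 2 that were higher did not, but this match depended on the list: with the widest 75% of regions 5 genes were lower in both, Gata6 among them. Gata3 in the XX lineage moved only from 44.6% to 43.2%, and joining peaks within 1 kb turned that difference around. Joining within 5 kb turned it for Gata2 in the XY lineage and left 2 genes lower in both, Gata5 and Zfpm1. The order of Gata4 and Zfpm2 held under each list setting tried.

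**Figure D5:**
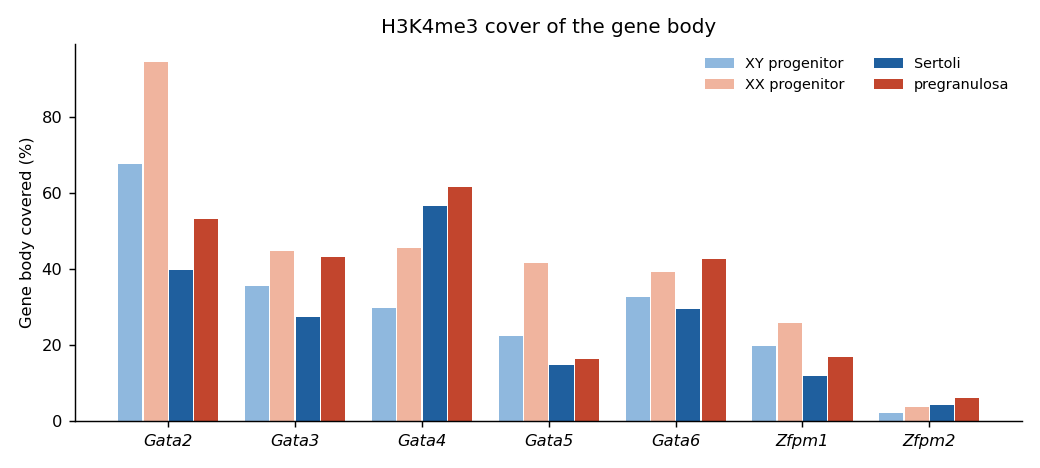
Percent of each gene body covered by H3K4me3 regions, 1 bar per population. Gata4 rises from 29.7% and 45.6% in XY and XX progenitor cells to 56.5% and 61.6% in Sertoli and pregranulosa cells, while Gata2 falls from 67.6% and 94.4% to 39.8% and 53.1%.

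Cover of the gene body was also placed among all genes. Gata2 had as much H3K27me3 over its body as any gene, 100% in all 4 lists, which 4.71% to 6.19% of genes shared, and its H3K4me3 cover of 94.4% in XX progenitor cells was reached by 3.45%. The H3K4me3 cover of Gata4 in Sertoli cells was reached by 5.90% of genes and that in pregranulosa cells by 6.06%, compared with 10.3% in XY progenitor and 9.22% in XX progenitor cells. The long body of Zfpm2 placed it near the middle for H3K4me3, where 49.7% to 60.1% of genes had as much. At E13.5 the H3K4me3 cover of Gata5 was reached by 24.8% of genes in Sertoli and 25.1% in pregranulosa cells, and that of Zfpm1 by 29.0% and 24.6%.

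For each member, the 2 autosomal protein-coding genes closest in cover were found by the mean absolute difference over 32 shares, those of the promoter, body, upstream flank and downstream flank in the 8 lists. Gata4 was closest to Prickle4 (0.071) and Nr5a1 (0.075), the latter encoding the gonadal factor SF1. Gata6 was closest to Kcnh2 (0.055) and Wt1 (0.056), the latter another gonadal factor. Zfpm2 was closest to Cpne8 (0.020) and Syne2 (0.029). Gata2 was closest to Klf14 (0.066) and Gpr45 (0.066), Gata3 to Pax6 (0.090) and Crabp1 (0.092), Gata5 to Pnma2 (0.076) and Cxcl12 (0.077), and Zfpm1 to Rfxank (0.102) and Trmt1 (0.103). The smallest differences were those of Zfpm2. Its long body had little cover, 2.16% to 5.94% for H3K4me3 and at most 1.20% for H3K27me3. Its downstream flank had no region of either mark in any list. These shares come from the same lists and say nothing of shared function.

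Genes that act with the family were read from the same lists. Of 11 corepressor genes of the NuRD and CtBP complexes that FOG proteins bind, 11 carried H3K4me3 in every population (background 64.8% to 67.0%). H3K27me3 was at 0, 1, 0 and 1 of them in XY progenitor, XX progenitor, Sertoli and pregranulosa cells, the exception being the X-linked Rbbp7 with 4001 bp in XX progenitor and 3557 bp in pregranulosa cells. A chosen list of 6 other genes with GATA-type zinc fingers had no H3K27me3 at the promoter in any population. Among them was the X-linked Gata1, the partner of FOG1 in blood. The autosomal background for H3K27me3 was 22.1% to 24.2%, and 6 genes are too few to tell apart from it. Gata1 had H3K4me3 over 943 bp of its promoter in pregranulosa cells and 0 bp elsewhere.

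Partners of the GATA factors in other tissues were read beside the background. H3K27me3 was at 23.6% of all promoters in XY progenitor, 22.8% in XX progenitor, 24.2% in Sertoli and 22.1% in pregranulosa cells. Of the 21418 autosomal protein-coding promoters, 3499 carried H3K27me3 in all 4 populations. Among 6 cardiac partners of GATA4, such as Nkx2-5, 5 carried it in all 4 populations, and Mef2c in none. Among 4 endoderm partners 3 carried it in all 4, and Hnf4a, a liver and gut nuclear receptor, had 4001 bp in Sertoli cells and 0 bp in the other 3. Among 7 blood and endothelial partners 4, 4, 5 and 5 carried it, with Lmo2 and Runx1 marked in the E13.5 populations, Klf1 in the progenitors, and Tal1, Gfi1b and Fli1 in all 4.

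Of 12 gonadal genes known as targets of GATA4 or FOG2, 7 carried H3K27me3 in XY progenitor (background 23.6%) and 7 in XX progenitor cells (22.8%). At E13.5, 4 carried it in Sertoli (24.2%) and 5 in pregranulosa cells (22.1%). Nr5a1 lost it in both lineages, as Gata4, Gata6 and Zfpm2 did, with 4001 bp at E10.5 in both sexes and 0 bp at E13.5. Others differed between the sexes, unlike the 7 members. Sox9, the testis-determining factor downstream of Sry, and Dmrt1 kept 4001 bp in pregranulosa cells and had 0 bp in Sertoli cells. Amh, which encodes anti-Müllerian hormone, had 725 bp in pregranulosa cells only. Lhx9 and Wnt4, a signal of ovary development, kept 4001 bp in Sertoli cells and had 0 bp in pregranulosa cells.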

How the data were processed

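H3, H3K4me3 and H3K27me3 ChIP-seq was done in 24 samples. Per the labels and methods, the authors trimmed the reads, used Bowtie to place them on mm9 and ran HOMER in histone style with H3 as input. The methods describe calling in each replicate, whereas the series description states that the deposited lists come from both replicates together. In the 6 lists with a header the authors set the peak size to 1000 bp (H3K4me3) or 5000 bp (H3K27me3), required 4-fold enrichment over input and locally, and used Poisson p-values of 0.0001 against input and 0.001. The deposited score column holds 1 value throughout and was not used, so only positions were analysed, and depth limits what could be called.

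Overlapping or touching peaks were joined into regions. Starts and genes came from GENCODE M1 on mm9 (NCBIM37), with 1 window of 2 kb either side per gene and 20 kb flanks. Populations were compared by counts and covered bases without a test. Exact (Clopper-Pearson) 95% intervals cover counting error only. Alternatives changed the overlap, window, start, list length and joining. The members and lists were chosen with earlier results of these data known. All 7 members were named, with neighbours in their flanks, list genes that differ between Sertoli and pregranulosa cells (and others named after their values were seen) and the 2 closest genes. Interval steps were tested on simulated data. Tools were bedtools 2.31.1 and Python 3.11.15 with SciPy 1.17.1, matplotlib 3.10.9 and NumPy 2.4.6. H3 was used by the authors as input and was not analysed here, and the marker Spi1 was not found by symbol.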

Additional observations from a re-analysis of the deposited data

How the results depend on the processing

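The counts of members with H3K4me3, H3K27me3 or both, and the loss at Gata4, Gata6 and Zfpm2 in both lineages, kept their value within 1.5 times under every alternative run: 500 bp of overlap, the start inside a region, 1 kb windows, the start of any transcript, the widest 75% of regions, lists of equal length, and joining within 1 kb or 5 kb. The gain at Zfpm1 did not. With the start itself inside a region, or with 1 kb windows, the gain was 0 in the XY lineage, 0 in the XX lineage and 0 in both, since the regions begin outside those windows. With lists of equal length it was 0 in the XY lineage and 0 in both, and pregranulosa cells alone then had H3K27me3 at 1 member, Zfpm1. With the widest 75% of regions the XX lineage had a gain at 2 members, Gata5 and Zfpm1, because the narrow progenitor regions at Gata5 fell out. Pregranulosa cells alone were then marked at 1, Zfpm1. The XY lineage had a gain at Gata5 and not at Zfpm1, so the gain in both lineages was at 1 member, Gata5. Under this setting 2 members in place of 3, Gata2 and Gata3, kept the mark in both lineages. Alternatives added after the data were seen left the cleared loci at 3, and joining within 5 kb left H3K4me3 body cover lower in both lineages at 2 members, Gata5 and Zfpm1. Of 56 values of body cover, 17 fell with the widest 75% of regions and 21 rose with joining within 5 kb. Counting all autosomal genes lowered the background, for H3K27me3 to 18.7%, 18.1%, 20.2% and 18.2%.

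No paired analysis was possible because each list pools both replicates and the results come from no test, and leaving out a replicate was not possible for the same reason. Start sites from a second annotation on mm9 were not run. Depth is unknown for the pregranulosa lists, and among the other populations it was lowest for XY progenitor cells. The pregranulosa H3K27me3 list also held only separate peaks, unlike the other H3K27me3 lists.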
